A study of Rattus norvegicus with 3 samples.

Results

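The genes described here are the cardiac lineage transcription factors Gata4, Gata6, Nkx2-5, Mef2c and Mef2d, the homeodomain-only gene Hopx and the cardiac gene Lrrc10. Their probe sets were taken by gene symbol, but the genes were chosen with earlier results of these data known. All 7 were represented, by 11 of the 15866 non-control probe sets and among 10411 named genes. Messenger RNA was measured in ventricular myocytes of newborn rats, with 1 array for cells cultured with 1 µM PAMH, 1 array for cells cultured with 20 µM phenylephrine and 1 array for unstimulated cells. All 3 cultures lasted 48 h, and the labels give no strain, age in days, vehicle or number of animals. Phenylephrine activates α1-adrenergic receptors, a classic growth stimulus for these cells. PAMH is the submitters' name for the other compound, and their keywords for all 3 samples include hypertrophy and pyridine. Because the compounds were not given at 1 dose, a difference between their arrays is not a matched comparison. With 1 array per condition there was no replicate check, and no difference below has a standard error or a p-value.

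GATA4 and GATA6 are zinc finger proteins, NKX2-5 is a homeodomain protein and MEF2C and MEF2D are MADS-box proteins, and in heart muscle they bind together at the control regions of contractile and natriuretic peptide genes. HOPX has a homeodomain that does not bind DNA, and is known to hold back serum response factor (SRF) by recruiting histone deacetylases. LRRC10 is a leucine-rich repeat protein of cardiac myocytes, found near the Z-disc. In mice both Lrrc10 and Hopx have been described as targets of NKX2-5, and Lrrc10 also of GATA4.

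The sequences before the starts of Lrrc10 and Hopx are shown. Of the 7, Lrrc10 gave the largest ratios to unstimulated cells, and Hopx the largest between the PAMH and phenylephrine arrays. They are the RefSeq promoters of rat build GRCr8, from 250 bases before to 50 bases after the annotated gene start, plus strand, at chr7:54572685-54572984 for Lrrc10 and chr14:31429163-31429462 for Hopx. Capitals mark matches to the GATA motif, the NKX2-5 motif or the TATA box, on the strands named after them.
Lrrc10: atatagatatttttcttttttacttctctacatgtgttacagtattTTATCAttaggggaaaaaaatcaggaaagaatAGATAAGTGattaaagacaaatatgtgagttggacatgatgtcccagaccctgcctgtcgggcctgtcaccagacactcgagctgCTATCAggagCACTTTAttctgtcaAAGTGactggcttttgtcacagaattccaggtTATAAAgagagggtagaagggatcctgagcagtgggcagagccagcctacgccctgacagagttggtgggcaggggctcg
Hopx: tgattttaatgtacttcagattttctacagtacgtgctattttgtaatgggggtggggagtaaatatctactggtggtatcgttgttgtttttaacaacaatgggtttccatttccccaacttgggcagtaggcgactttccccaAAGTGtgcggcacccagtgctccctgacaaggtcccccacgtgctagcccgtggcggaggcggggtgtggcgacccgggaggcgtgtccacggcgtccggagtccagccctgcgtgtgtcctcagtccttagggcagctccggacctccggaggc
The GATA motif was searched on both strands as the letters AGATAA, the letters AGATAG, the letters TGATAA and the letters TGATAG. Lrrc10 held 3 such sites, starting 204, 172 and 87 bases before the gene start. At least 1 site was present in 30.3% of 33469 rat promoters of this length and at least 3 in 1.79%. The NKX2-5 core AAGTG, on either strand, was present 3 times in Lrrc10, starting 168, 77 and 62 bases before the start, and once in Hopx, starting 105 bases before it. The core was in 46.2% of all promoters at least 1 time, and no share with 3 or more is given, so the count of 3 has no background beside it. The Lrrc10 match at 77 also completed the longer form TNAAGTG on the minus strand, found in 11.5% of promoters, and the match at 168 overlaps the GATA site at 172. The TATA box TATAAA, searched on the plus strand, was in Lrrc10 30 bases before the start and in 8.80% of promoters. MEF2 elements and CArG boxes, the binding sequence of SRF, were in 3.29% and 1.64% of all promoters and had no match in the 5 promoters of these genes in the table, which were those of Lrrc10, Hopx, Nkx2-5, Mef2d and Gata6. Those of Nkx2-5 and Gata6 held no match to any motif searched, and that of Mef2d held 1 GATA site, starting 5 bases after the gene start. A match describes letters and is not a measured binding site.

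Signals below are deposited intensities rescaled to give the 3 arrays the same median. A ratio was taken only where both signals were at or above a floor of 76.0, percentile 40 of all scaled values. A gene with several probe sets stands by the brightest in mean signal over the 3 arrays. A gene was counted as higher or lower at 1.5-fold, a log2 ratio of 0.58 or more in size. By this rule 9.31% of 6549 measured genes were higher and 4.17% lower with PAMH than in unstimulated cells, a split of 610 and 273 genes. With phenylephrine 8.9% of 6571 genes were higher and 4.54% lower, a split of 585 and 298. These splits depended on the scaling. With PAMH they were 350 and 515 on the deposited intensities, 492 and 353 with scaling on percentile 75, 422 and 376 after quantile normalization and 413 and 363 after cyclic loess. With phenylephrine they were 396 and 519, 504 and 353, 477 and 389, and 476 and 362, in the same order. The median log2 ratio over all measured genes was 0.10 with PAMH and 0.07 with phenylephrine. Where a gene had several probe sets, their log2 ratios differed by an SD of 0.28 with PAMH and 0.26 with phenylephrine, which holds no variation between cultures.

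With PAMH, 3 of the 7 genes were at least 1.5-fold higher than in unstimulated cells (Nkx2-5, Mef2d and Hopx) and 1 was lower (Lrrc10). Over all genes the shares were 9.31% and 4.17%. Mef2d is counted by a probe set that was the brighter of its pair only on the PAMH array. Its other probe set gave a log2 ratio of -0.13 with PAMH. With phenylephrine, 2 of 7 were higher (Nkx2-5 and Mef2d) and 1 was lower (Lrrc10), against 8.9% and 4.54%. The median log2 ratio of the 7 genes was 0.50 with PAMH and 0.01 with phenylephrine. Only Lrrc10 and, with PAMH, Nkx2-5 kept their calls under all 9 processing alternatives. Both have 1 probe set, above every floor used, so the floor alternatives and the mean over probe sets could not change their ratios.

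**Figure D1:**
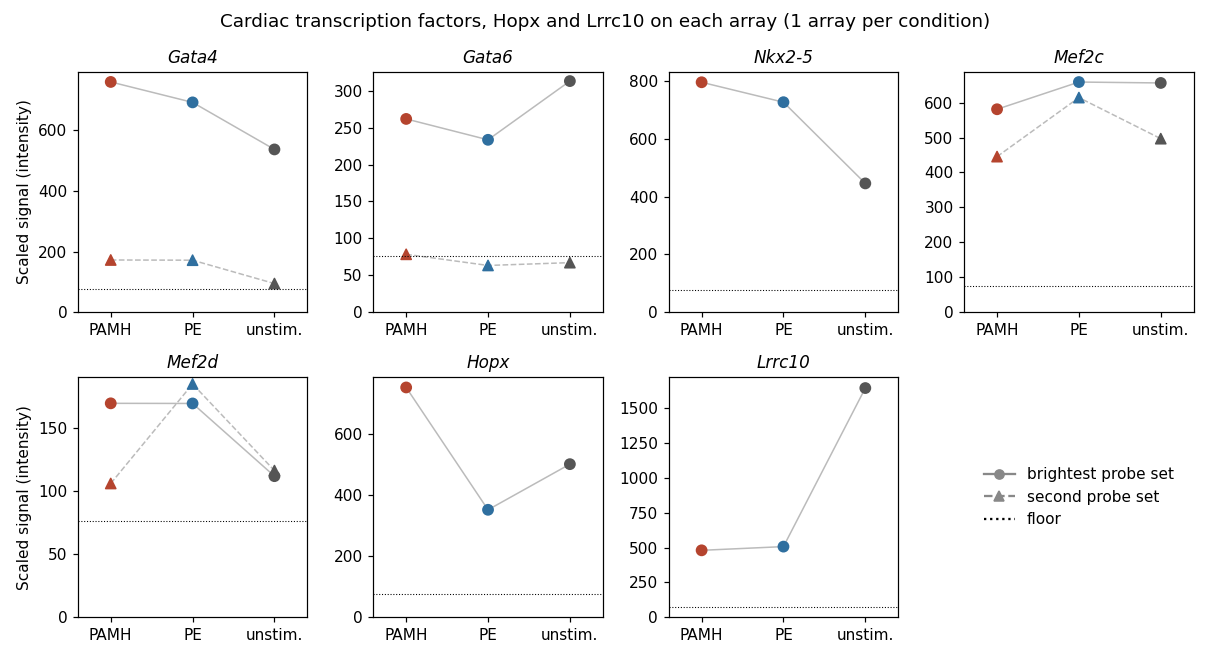
Scaled signal (intensity, linear axis from 0) of each probe set of the 7 genes on the PAMH, phenylephrine (PE) and unstimulated arrays, 1 array each; circles are the brightest probe set, triangles a second one, lines join values of 1 probe set and the dotted line is the floor of 76.0. Lrrc10 is at 480.3 and 506.9 with the compounds against 1642.1 in unstimulated cells, and Hopx is highest with PAMH and lowest with phenylephrine.

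Among the factors, Nkx2-5, the homeobox gene of early heart formation, was higher with both compounds. Its probe set 1369987_at had a signal of 797.1 with PAMH and 728.0 with phenylephrine, against 446.4 in unstimulated cells. This is 1.79-fold higher with PAMH (log2 ratio 0.84) and 1.63-fold higher with phenylephrine (0.71). A higher ratio was found for 3.60% of the measured genes with PAMH and 5.81% with phenylephrine. In the tenth of genes nearest to it in signal, 14.2% were at least 1.5-fold higher with PAMH and 13.1% with phenylephrine. The phenylephrine ratio missed 1.5-fold by under 0.01 on the log2 scale, at 0.58, on the deposited intensities, after quantile normalization and after cyclic loess.

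Gata4, whose protein is a known mediator of α1-adrenergic growth signals in rat myocytes, was measured by a pair of probe sets designed from the same sequence record, and both gave higher signals with either compound. The brighter, 1387894_at, had 759.4 with PAMH and 692.0 with phenylephrine, against 536.8 in unstimulated cells, log2 ratios of 0.50 and 0.37 that did not reach 1.5-fold. The dimmer, 1370293_at, had 172.1 with PAMH and 171.4 with phenylephrine, against 94.3 in unstimulated cells, which is 1.82-fold higher with each. The mean of both probe sets passed 1.5-fold with PAMH (0.68) and with phenylephrine (0.61).

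Gata6, the other GATA factor of the myocyte, was below its unstimulated signal on both arrays. Its brighter probe set 1368827_at had 261.9 with PAMH and 233.6 with phenylephrine, against 313.2 in unstimulated cells, log2 ratios of -0.26 and -0.42 that did not reach 1.5-fold. The second, 1375613_at, was above the floor only with PAMH (78.4) and gave no ratio. Gata4 and Gata6 thus lay on opposite sides of the median of all genes, in both comparisons.

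Mef2c, the MEF2 gene needed for the developing ventricle, stayed within 1.5-fold by both probe sets. The brighter, 1372332_at, had 580.9 with PAMH and 658.8 with phenylephrine, against 656.2 in unstimulated cells. The dimmer, 1373410_at, had 445.3 with PAMH and 614.3 with phenylephrine, against 496.7 in unstimulated cells. With PAMH both had small negative log2 ratios of -0.18 and -0.16, and with phenylephrine they had 0.01 and 0.31.

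Mef2d, whose protein is known in mice to drive stress-induced growth of the heart, was higher with phenylephrine by both probe sets, but with PAMH by only 1. Probe set 1398427_at, which had the higher mean signal, had 169.3 with PAMH and 169.2 with phenylephrine, against 111.7 in unstimulated cells. Its log2 ratios were 0.60 each. The other, 1369851_at, had 105.9 with PAMH and 184.6 with phenylephrine, against 116.1 in unstimulated cells, log2 ratios of -0.13 and 0.67. Thus 1398427_at, which stands for the gene, was the brighter of the pair only on the PAMH array. The probe sets thus disagreed on the PAMH array, and their mean log2 ratio there was 0.23. Probe set 1398427_at missed 1.5-fold with both compounds under 3 alternatives, which were the deposited intensities, percentile 75 scaling and the offset of 50.

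**Figure D2:**
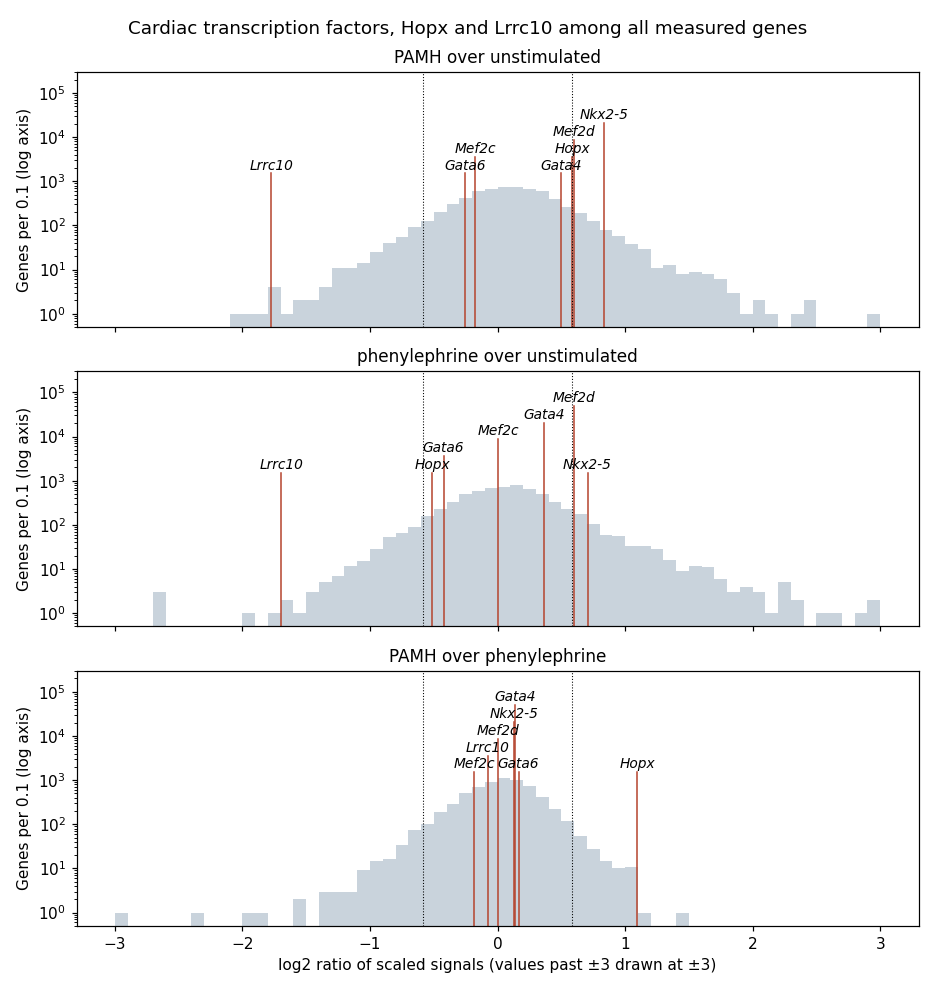
Number of measured genes (log axis) per 0.1 of log2 ratio for PAMH over unstimulated, phenylephrine over unstimulated and PAMH over phenylephrine; red lines mark the 7 genes and dotted lines 1.5-fold. Lrrc10 lies in the lower tail of both comparisons with unstimulated cells, at log2 ratios of -1.77 and -1.70, and Hopx in the upper tail of PAMH over phenylephrine, at 1.10.

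Lrrc10 was the furthest from its unstimulated level of the 7 genes. Its probe set 1389727_at had a signal of 480.3 with PAMH and 506.9 with phenylephrine, against 1642.1 in unstimulated cells. It was 3.42-fold lower with PAMH (log2 ratio -1.77) and 3.24-fold lower with phenylephrine (-1.70). It was the only one of the 7 genes at least 2-fold lower, against 0.794% of all genes with PAMH and 0.761% with phenylephrine. None of the 7 was at least 2-fold higher, against 2.05% and 2.62%. With PAMH 4 measured genes had a lower ratio, namely Bcl2l11, Sphkap, Gja5 and Aldoc, although a second probe set of Gja5 gave only -0.44. With phenylephrine 5 genes had a lower ratio, namely Bcl2l11, Aldoc, Dhrs7c, Slc4a1ap and Adra1b. All were named because they lay beyond Lrrc10. Only Bcl2l11 and Aldoc were below it in both comparisons among 6400 genes measured on all 3 arrays, and unlike Lrrc10, which stayed above 480 on each array, both had phenylephrine signals near the floor (83.5 and 88.9). Under the 9 processing alternatives the log2 ratio of Lrrc10 lay between -1.995 and -1.67 with PAMH and between -1.89 and -1.60 with phenylephrine. The floor alternatives and the mean over probe sets left both ratios unchanged. Lrrc10 had 1 probe set, so no second one stood beside it, and both ratios share the 1 unstimulated array.

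By the brightest probe sets, Hopx was the only one of the 7 genes whose signals with the compounds lay clearly on either side of the unstimulated one. The second probe sets of Mef2d (log2 ratios of -0.13 and 0.67) and Mef2c (-0.16 and 0.31) also lay on either side. The only probe set of Hopx, 1367816_at, had 752.2 with PAMH and 352.0 with phenylephrine, against 501.3 in unstimulated cells. With PAMH the log2 ratio of Hopx was 0.59, barely past the threshold. The floor alternatives and the mean over probe sets could not change it, since this 1 probe set lay above every floor used. Each of the other 5 of the 9 alternatives put Hopx below the threshold, down to 0.43 on the deposited intensities. With phenylephrine it was 1.42-fold lower (-0.51), below 1.5-fold in size, and it passed 1.5-fold lower on the deposited intensities (-0.64), after quantile normalization (-0.60) and after cyclic loess (-0.61). Set against each other, the arrays with the compounds gave a Hopx signal 2.14-fold higher with PAMH at 1 µM than with phenylephrine at 20 µM (log2 ratio 1.10).

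That ratio of the PAMH to the phenylephrine array does not use the unstimulated array. Of 6593 genes in this comparison, 1.93% passed 1.5-fold on the higher side and 2.67% on the lower side, and 0.197% and 0.364% passed 2-fold. Of the 7 genes, Hopx alone passed 1.5-fold, and also 2-fold, on the higher side by the brightest probe sets, and none passed on the lower side. By the same probe sets the other 6 lay between -0.18 (Mef2c) and 0.16 (Gata6). The second probe sets of the MEF2 genes lay lower, at -0.80 for Mef2d, which is 1.74-fold lower with PAMH than with phenylephrine, and at -0.46 for Mef2c. As means over probe sets Mef2d had -0.40 and Mef2c -0.32. Higher ratios than that of Hopx were found for 2 genes, Zfp638 (2.66-fold) and Mxi1 (2.22-fold), named because they lay beyond it. Over the alternatives the log2 ratio of Hopx lay between 0.997 and 1.10. Of 6400 genes measured on all 3 arrays, 1 other than Hopx, again Zfp638, was as far up with PAMH and as far down with phenylephrine.

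**Figure D3:**
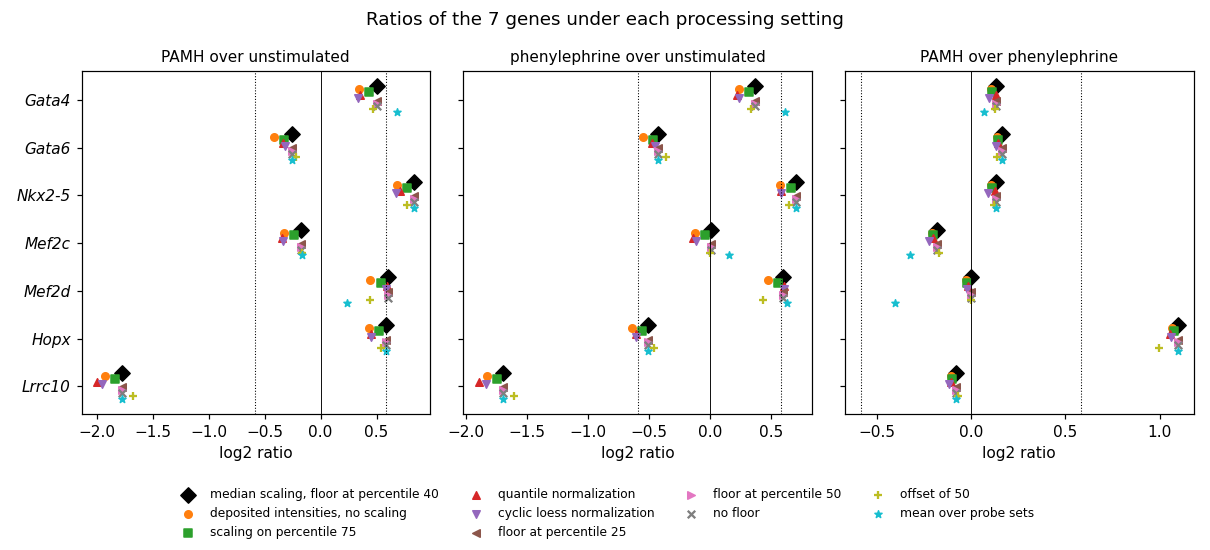
Log2 ratio of each of the 7 genes in the 3 comparisons under each processing setting; black diamonds are the values given in the text, other symbols the 9 alternatives, dotted lines 1.5-fold. The spread over settings leaves Lrrc10 below -1.60 in both comparisons with unstimulated cells and Hopx at 0.997 or more for PAMH over phenylephrine, while Nkx2-5, Mef2d and Hopx lie near the threshold against unstimulated cells.

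Genes whose 3 signals ran most like those of a called gene were found by the distance between the paired log2 ratios, over 4836 candidates with a mean signal above percentile 60 and over 3 arrays. Nearest to Lrrc10 were Sphkap, which encodes a protein kinase A anchoring protein, at a distance of 0.43, Gja5 of the conduction system gap junction (0.43), the α1B-adrenergic receptor gene Adra1b (0.52), Nrep (0.60) and Ctdsp2 (0.60). None lay closer than 0.43, while the nearest to Nkx2-5 lay at 0.02 and the nearest to Mef2d at 0.01. With PAMH 4 measured genes lay below Lrrc10, while 236 lay above Nkx2-5 and 586 above Mef2d. A nearest distance is larger where fewer genes lie, so this contrast restates how far out Lrrc10 was. Gja5 stands here by its brightest probe set, and its second gave log2 ratios of -0.44 with PAMH and -0.61 with phenylephrine. Nearest to Hopx were the JNK kinase gene Mapk9 (0.12), Cep85 (0.14), the ubiquitin ligase genes Ube3b (0.16) and Fbxo7 (0.24), and Eci3 (0.23). Nearest to Nkx2-5 were Timm8a1 of mitochondrial protein import, Magi3, Rab3ip, Hip1r and Fam111a, at 0.02 to 0.04. Nearest to Mef2d were Gas2l3, Mtfr1l, the elongation factor gene Eef1d, the magnesium transporter gene Slc41a1 and Ajuba, at 0.01 to 0.03.

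Other cardiac transcription factors gave no call with PAMH and 3 with phenylephrine. Of 39 listed, 21 were on the array by a probe set with 1 symbol and 13 gave a ratio with both compounds. With PAMH none was at least 1.5-fold higher or lower, and the log2 ratios ran from -0.50 (Tbx5, of the conduction system and chambers) to 0.57 (Tead2), against 9.31% of all genes higher and 4.17% lower. On the deposited intensities 2 were lower with PAMH, Tbx5 (-0.66) and Meis2 (-0.60), and after quantile normalization 1 was, Meis2. With the floor at percentile 25, 1 was higher, and with no floor 2 were higher and 1 lower. With phenylephrine 1 of 13 was higher, Tead2, and 2 were lower, Klf15 and Prox1, against 8.9% and 4.54% of all genes. Tead2 missed 1.5-fold on the deposited intensities (0.52) and with an offset of 50 (0.51). Klf15, a Krüppel-like factor known to hold back hypertrophic growth, had a signal of 194.3 with PAMH and 95.5 with phenylephrine, against 206.5 in unstimulated cells. It was thus low only on the phenylephrine array, 2.16-fold below the unstimulated one, and near the floor there. Prox1 had 381.3 with PAMH and 276.0 with phenylephrine, against 439.7 in unstimulated cells. The median log2 ratio of the list was -0.09 with PAMH and -0.04 with phenylephrine, below the 0.10 and 0.07 of all genes. Gata5, the third GATA factor of the heart, had 168.0 with PAMH and 166.8 with phenylephrine, against 194.9 in unstimulated cells, and Hand1, Isl1, Irx4, Tbx2 and Tbx3 were below the floor on all 3 arrays.

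Cofactors and histone deacetylases likewise gave no call with PAMH, and 2 with phenylephrine. Of 19 listed, 14 were on the array and 11 gave ratios. With PAMH 0 of 11 passed 1.5-fold in either direction, against 9.31% and 4.17% of all genes, although without a floor 1 was higher and 2 lower. With phenylephrine 1 of 11 was higher, Hdac3, a class I deacetylase gene, and 1 was lower, Crebbp, which encodes an acetyltransferase, against 8.9% and 4.54% of all genes. Hdac3 had 333.2 with PAMH and 469.0 with phenylephrine, against 267.5 in unstimulated cells. Crebbp had 193.8 with PAMH and 109.2 with phenylephrine, against 167.5 in unstimulated cells, and missed 1.5-fold with an offset of 50. Hdac2, a deacetylase gene whose product HOPX is known to bind, had 772.9 with PAMH and 717.5 with phenylephrine, against 793.9 in unstimulated cells. Hdac5, a class II gene whose product restrains MEF2 proteins, had log2 ratios of 0.40 and 0.32.

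Genes of SRF, the factor that HOPX is known to hold back, went in several directions. Srf itself had 917.8 with PAMH and 833.2 with phenylephrine, against 722.0 in unstimulated cells, within 1.5-fold. Of 17 SRF targets measured with PAMH, 4 were higher and 2 lower, and of 18 measured with phenylephrine 5 were higher and none lower. The shares over all genes were 9.31% higher and 4.17% lower with PAMH, and 8.9% and 4.54% with phenylephrine. The calponin gene Cnn1 (log2 ratios of 2.48 with PAMH and 2.85 with phenylephrine), the smooth muscle actin gene Acta2 (1.52 and 1.29), the skeletal actin gene Acta1 (1.25 and 1.09) and Myl9 (0.64 and 0.97) were the highest with PAMH. The enteric actin gene Actg2 (-1.04 with PAMH) and the smooth muscle myosin gene Myh11 (-0.64) were the lower ones. The median log2 ratio was 0.25 with PAMH and 0.26 with phenylephrine, but with PAMH quantile normalization gave -0.02 and cyclic loess -0.01.

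Of 33 genes listed as targets of GATA4, NKX2-5 or MEF2 in heart muscle, 28 gave ratios. With PAMH 11 were higher and 1 lower, and with phenylephrine 8 were higher and 1 lower, with medians of 0.46 and 0.22. Over all genes 9.31% were higher and 4.17% lower with PAMH, and 8.9% and 4.54% with phenylephrine. Quantile normalization turned these medians to -0.06 and -0.05, and cyclic loess turned both to -0.02. Under either, 6 were higher and 3 lower with PAMH, and 5 and 2 with phenylephrine. The highest were the natriuretic peptide genes Nppb (2.19 with PAMH) and Nppa (1.38 with PAMH and 1.18 with phenylephrine), the muscle LIM protein gene Csrp3 (1.72 and 1.60) and the desmin gene Des (1.12 and 1.36). Nppb had a signal of 14754.7 with PAMH and 12871.7 with phenylephrine, against 3226.6 in unstimulated cells. The lower one with both compounds was Gja5, the connexin gene of atrium and conduction system, with a signal of 182.6 with PAMH and 266.6 with phenylephrine, against 641.9 in unstimulated cells. A second probe set of Gja5 gave log2 ratios of -0.44 and -0.61.

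The PAMH and phenylephrine arrays were also set against each other for these 4 lists. By the brightest probe sets, Klf15 (log2 ratio 1.03) and Crebbp (0.83) were at least 1.5-fold higher with PAMH, and Myh11 (-0.66) and Actg2 (-0.60) were lower. Dimmer probe sets of other list genes also passed, 1 of Myl2 at 1.26 and 1 of Tpm1 at -0.70. The brightest probe sets of Myl2 and Tpm1 gave 0.43 and 0.16.

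**Figure D4:**
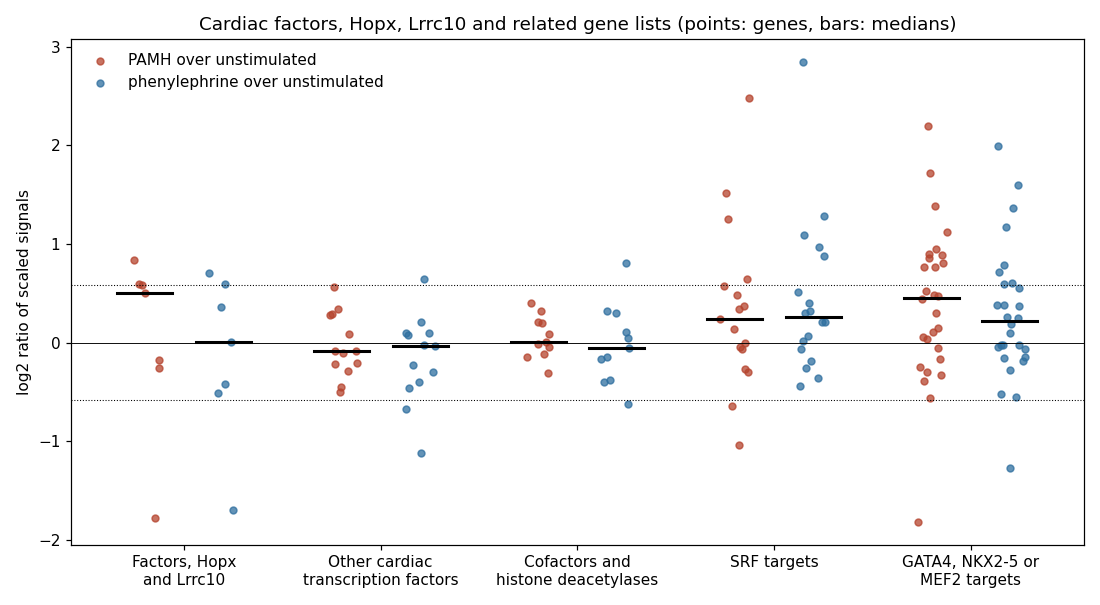
Log2 ratio of each measured gene (points) and the median (bars) of the 7 genes and of 4 related lists, with PAMH and with phenylephrine over unstimulated; dotted lines mark 1.5-fold. No other factor or cofactor lies past 1.5-fold with PAMH, and 5 do with phenylephrine. Over all genes 9.31% were higher and 4.17% lower with PAMH, and 8.9% and 4.54% with phenylephrine. Of the 5, Tead2 lies close to the threshold in both comparisons, at 0.57 with PAMH and 0.65 with phenylephrine. SRF targets and GATA4, NKX2-5 or MEF2 targets reach above a log2 ratio of 2 with PAMH.

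The cultures were checked against marker genes, since cells other than myocytes are usual in such primary cultures and Gata4, Gata6 and Mef2c are not confined to myocytes. All 9 represented cardiac myocyte markers were above the floor on every array, and their summed signal was 89065 with PAMH and 75810 with phenylephrine, against 62985 in unstimulated cells. Of 10 fibroblast and matrix markers, 6 of 8 measured were at least 1.5-fold lower with PAMH and 1 of 8 with phenylephrine. The shares over all genes were 4.17% and 4.54%. Second probe sets of Col1a1 (-0.04) and Fbn1 (-0.41), which were among the 6, did not pass with PAMH. The summed signal was 5677 with PAMH and 7329 with phenylephrine, against 9538 in unstimulated cells. The fibroblast markers Pdgfra and Tcf21 were below the floor with both compounds and above it in unstimulated cells, Tcf21 barely so (78.2). Of the smooth muscle markers 3 of 6 were higher and 1 lower with PAMH, and 4 of 6 higher and none lower with phenylephrine. Over all genes 9.31% were higher and 4.17% lower with PAMH, and 8.9% and 4.54% with phenylephrine. Their summed signals were 9823 and 11871, against 5567 in unstimulated cells. All but Smtn were also counted as SRF targets. The myocyte markers other than Atp2a2 and Actn2 were also counted as GATA4, NKX2-5 or MEF2 targets, so these values repeat those of the lists. Endothelial markers had summed signals of 170 with PAMH and 327 with phenylephrine, against 272 in unstimulated cells, and Pecam1, Kdr and Vwf were below the floor on all 3 arrays. Macrophage markers summed to 452, 391 and 367 and epicardial markers to 368, 326 and 296, in the order PAMH, phenylephrine and unstimulated. Fewer cells of a type and less RNA per cell cannot be told apart in such samples, and the part of these shifts in the ratios of Gata6, Mef2c and Gata4 was not tested. The level of the myocyte markers depended on the scaling: their median log2 ratio was 0.44 with PAMH and 0.25 with phenylephrine, but -0.13 and -0.10 after quantile normalization and -0.05 and -0.13 after cyclic loess, and with phenylephrine it was -0.02 as the mean over probe sets. The part of these shifts in the ratios of Lrrc10, Nkx2-5 and Hopx was not tested either. The ratio of 3′ to 5′ control probe sets was 1.54 with PAMH and 1.44 with phenylephrine, against 1.72 in unstimulated cells, for actin, and 1.01, 1.07 and 1.04 for Gapdh.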

How the data were processed

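The deposited table gives a linear intensity for each of 15923 probe sets on each array. Which software the authors used to make it is not given in the labels used here. Their mean after trimming both ends was 250.1 on each array, so the deposited arrays already shared a common level by that measure. The median scaling used here came on top of it. Each array was scaled to a common median over the 15866 non-control probe sets, with factors of 1.04 for PAMH, 1.02 for phenylephrine and 0.937 for unstimulated, since the deposited medians were 105.9, 107.95 and 117.9. On the deposited intensities the median log2 ratio was thereby shifted by -0.15 with PAMH and -0.13 with phenylephrine, and ratios are relative to this shift. Of the non-control probe sets, 12783 had 1 gene symbol in the platform annotation and 312 had several, and the rest had none. A RefSeq gene table of build GRCr8 held 12748 of them by identifier, and its symbols were used. Ratios needed both signals at or above percentile 40. With 1 array per condition no test was made, so precision is limited by having 3 arrays.

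The genes and gene lists were chosen with earlier results of these data known. The PAMH to phenylephrine comparison and the promoter motifs were added after the data were seen. The text names all 7 genes, up to 4 genes per direction past 1.5-fold in each list, the 5 genes nearest to each called one, a few list members given as values, and genes beyond Lrrc10 or Hopx in rank. These last genes and the list members within 1.5-fold were chosen after their values were seen. Alternatives were the deposited intensities, scaling on percentile 75, quantile and cyclic loess normalization, floors at percentile 25, at percentile 50 and none, an offset of 50, and the mean over probe sets. The ratio computation was tested on simulated data. Python 3.11.15, numpy 2.4.6, pandas 2.3.3, R 4.3.3 and limma 3.58.1 were used.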

Additional observations from a re-analysis of the deposited data

How the results depend on the processing

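No paired analysis was possible because each condition had 1 array. Of the 21 ratios of the 7 genes in the 3 comparisons, 14 stayed on the same side of 1.5-fold under all 9 alternatives, and none past 1.5-fold changed sign. The count of genes at least 1.5-fold higher with PAMH, 3 of 7, became 1 on the deposited intensities, with percentile 75 scaling and with the offset of 50. It became 2 after quantile normalization and after cyclic loess, where Hopx dropped out. As the mean over probe sets it stayed at 3, with Gata4 in place of Mef2d. The count higher with phenylephrine, 2 of 7, became 0 on the deposited intensities. It became 1 with scaling on percentile 75, after quantile normalization, after cyclic loess and with an offset of 50. As the mean over probe sets it became 3, where Gata4 joined Nkx2-5 and Mef2d. The count lower with phenylephrine, 1 of 7, became 2 on the deposited intensities, after quantile normalization and after cyclic loess, where Hopx joined Lrrc10. The median log2 ratio of the 7 genes lay between 0.23 and 0.50 with PAMH, between -0.14 and 0.16 with phenylephrine and between 0.07 and 0.13 for PAMH over phenylephrine. Over all genes, the numbers at least 1.5-fold higher and lower without a floor were 1488 and 1216 with PAMH, 1475 and 1095 with phenylephrine, and 919 and 1107 for PAMH over phenylephrine, against 610 and 273, 585 and 298, and 127 and 176. With the floor at percentile 25 the lower counts were 448 with PAMH and 450 with phenylephrine, and PAMH over phenylephrine had 244 higher and 334 lower. With an offset of 50 the lower counts were 158 and 177, and PAMH over phenylephrine had 63 and 85. Signals of Mef2d and the second probe sets of Gata4 and Gata6 lay near the floor, which limits their ratios.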
